A study of Mus musculus with 7 samples.

Results

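The Fos, Jun and small Maf families are transcription factors with a basic leucine zipper, a segment that pairs 2 proteins and grips DNA. The 9 genes described here are Fos, Fosb and Fosl2, which encode Fos proteins, Jun, Junb and Jund, which encode Jun proteins, and Maff, Mafg and Mafk, which encode the small Maf proteins. They were taken by gene symbol from a table of 35976 symbols, and all 9 passed the filter on low counts that kept 14412 genes. Fos proteins pair with Jun proteins to form AP-1. Fos, Fosb, Jun and Junb are immediate early genes, which neurons switch on within minutes of strong activity, and the same genes are known to respond when brain tissue is digested into single cells. Small Mafs have no activation domain of their own and bind DNA with partners of the CNC and Bach families, among them Nfe2l2 (NRF2).

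The libraries were made from neurons isolated from the amygdala of male C57BL/6J mice, with no age stated. In the sgNr2f2 group (3 libraries) an AAV delivered a guide RNA against Nr2f2, a nuclear receptor gene, and in the sgRosa group (4 libraries) it delivered a guide against the Rosa locus, a common control target. Cas9 was under the hSyn promoter, which drives expression in neurons. Mice of each group had more than 2 weeks of expression, tube restraint on 7 days, fear conditioning on 1 day and fear extinction on 3 days, so no group was unstressed. Tissue was then digested with papain and neurons were enriched with magnetic beads, and 5 ng of RNA entered each library. Whether a library stands for 1 animal or several is not stated, so the p-values reflect variation among libraries, part of which may be technical. In such bulk libraries, fewer cells of a type and less RNA per cell cannot be told apart.

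Total counts ran from 16497269 to 20928677 in sgNr2f2 and from 6266897 to 19788953 in sgRosa. The targeted gene Nr2f2 lay at 11.8 ± 0.22 CPM in sgNr2f2 (SD, n = 3) and 15.2 ± 3.76 CPM in sgRosa (SD, n = 4), with a log2 fold change of -0.36 (SE 0.37, edgeR adjusted p = 0.905). The groups overlapped, so the Nr2f2 level does not by itself tell the libraries of the guides apart. CPM is a gene's count relative to its library's TMM-scaled total. All 11 neuron markers were counted in every library, but their summed level was 539 to 581 CPM in sgNr2f2 and 533 to 2653 CPM in sgRosa, far under the 165800 to 408100 CPM and 22950 to 346600 CPM of the 10 oligodendrocyte markers. Neuron markers were thus present, beside a large excess of oligodendrocyte RNA. The library sgRosa replicate 4 had the lowest total and stood apart: its 5 erythroid markers summed to 31590 CPM, against 1049 to 3063 CPM in the other 6 libraries. It also had the most neuron marker RNA (2653 CPM, against 533 to 913 CPM in the others) and the least oligodendrocyte marker RNA (22950 CPM, against 97730 to 408100 CPM). Jund, Mafk, Fosl2, Fosb and Junb had their most distant value in this library, and the part of its cell makeup in their values was not tested. Its GC-rich genes were also high. The tenth of genes with the highest GC content had a median deviation from their mean of 0.95 log2 units in that library, against -0.08 to 0.09 in sgNr2f2 and -0.32 to -0.26 in the other sgRosa libraries.

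The stretches upstream of Fos, Jun, Junb and Maff are shown because these genes were picked by their values. Fos and Jun leaned lower in sgNr2f2, Maff lay higher, and the ratio of Junb to Jun was higher. The levels of Fos, Jun and Junb overlapped between the groups, and no gene passed edgeR's adjusted test. Each line gives the 150 bases before an annotated start, 5′ to 3′ on the gene's strand, from RefSeq on GRCm38.p6. Capitals mark matches on either strand to TGACGTCA (the cyclic AMP response element), to its 5-letter core TGACG, or to TGACATCA, the variant known from the human JUN promoter. The core lies inside the full element, so those matches overlap.
Fos, chr12:85473740-85473889, plus strand: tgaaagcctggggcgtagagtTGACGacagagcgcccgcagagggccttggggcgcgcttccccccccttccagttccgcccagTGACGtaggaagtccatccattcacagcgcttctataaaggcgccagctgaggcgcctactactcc
Jun, chr4:95052223-95052372, minus strand: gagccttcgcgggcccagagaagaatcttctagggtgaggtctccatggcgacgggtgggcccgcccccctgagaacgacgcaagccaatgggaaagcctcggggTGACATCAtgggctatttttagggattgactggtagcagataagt
Junb, chr8:84978749-84978898, minus strand: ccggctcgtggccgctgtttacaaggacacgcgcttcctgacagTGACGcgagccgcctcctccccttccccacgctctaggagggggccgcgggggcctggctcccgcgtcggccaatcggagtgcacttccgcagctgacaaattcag
Maff, start 2, chr15:79347370-79347519, plus strand: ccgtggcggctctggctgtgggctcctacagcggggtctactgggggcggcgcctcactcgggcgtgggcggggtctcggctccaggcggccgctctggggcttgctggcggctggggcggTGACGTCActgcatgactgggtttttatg
Maff, start 3, chr15:79348252-79348401, plus strand: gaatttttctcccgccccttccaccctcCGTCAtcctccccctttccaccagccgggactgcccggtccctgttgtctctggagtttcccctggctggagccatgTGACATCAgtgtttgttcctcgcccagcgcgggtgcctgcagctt

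The RefSeq windows searched were longer, from 250 bases before each start to 50 bases after it, on both strands. The 9 genes had 11 such windows, 3 of them at Maff, and gene counts do not tell which Maff start was used. TGACGTCA stood at start 2 of Maff and in no other of the 11 windows, against 1.79% of 32851 windows of all genes. TGACATCA stood at Jun and at start 3 of Maff, in each case beginning 45 bases before the start, and in 3.62% of all windows. The core TGACG was in 7 of the 11 windows, which belong to 6 of the 9 genes, and in 20.8% of all windows. The AP-1 site TGACTCA and the nuclear receptor site AGGTCA were in none of the 11 windows and in 5.2% and 16.3% of all windows. TGACNNNGC, the core that small Maf dimers with Nfe2l2 bind, began 112 bases before start 1 of Maff, 222 before that of Mafg and 13 before that of Mafk, and was in 12.4% of all windows. The Maf recognition element and the CArG box, where serum response factor binds, had no match in the 11 windows. They were in 0.00304% and 1.63% of all windows, and sites farther upstream were not searched. These are letter matches in short windows and say nothing on binding.

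All 9 genes are protein-coding in GENCODE M21 on GRCm38. Fos lies at chr12:85473890-85477273, Fosb at chr7:19302696-19310051 and Fosl2 at chr5:32135801-32157842. Jun, a gene of 1 exon, lies at chr4:95049034-95052222. Junb (chr8:84974484-84978718) and Jund (chr8:70698949-70700616) share a chromosome. Maff lies at chr15:79346621-79359076, Mafg at chr11:120625117-120633600 and Mafk at chr5:139791513-139802653.

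Setting sgNr2f2 against sgRosa addresses which transcripts of stressed amygdala preparations go with a guide against Nr2f2. Among these genes the small Mafs lay higher in sgNr2f2, by 3.33-fold for Maff, 2.24-fold for Mafk and 1.99-fold for Mafg, and no library of one group overlapped the other. Fos and Jun leaned the other way, with 3.38-fold and 2.37-fold lower levels, although their groups overlapped. None of these differences passed the adjusted test: edgeR's quasi-likelihood test called 0 of the 9 genes higher and 0 lower at an adjusted p under 0.05, as it called 0.0% of all genes in each direction. DESeq2 on the same 7 libraries also called 0 of the 9 in each direction, where it called 0.0143% of all genes higher and 0.0357% lower. Before adjustment, at p under 0.05, edgeR had 2 genes higher (Maff and Mafg) against 2.18% of all genes, and 1 lower (Fos) against 2.82%. DESeq2 at that unadjusted p had 3 higher (Maff, Mafg and Mafk) against 2.98%, and 1 lower (Fos) against 4.61%, and gave no p for Jund. In edgeR fits with 1 library left out, whose p-values come from the model across all genes and not from an exact test, Fos did not pass without sgNr2f2 replicate 2 (p = 0.0705), sgNr2f2 replicate 3 (p = 0.0985) or sgRosa replicate 1 (p = 0.0657), and Mafg did not pass without sgNr2f2 replicate 2 (p = 0.102) or 3 (p = 0.0505). Groups that did not overlap numbered 3 of 9 on the higher side, against 4.41% of all genes, and 0 of 9 on the lower side, against 3.9%. On library size alone, without TMM scaling, those on the higher side were 2 of 9 (Maff and Mafk), as Mafg then overlapped. The median log2 fold change was 0.52 over the 9 genes and -0.11 over all genes. The 9 genes were chosen with earlier results of these data known, so these counts beside all genes are a description and not a test.

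**Figure D1:**
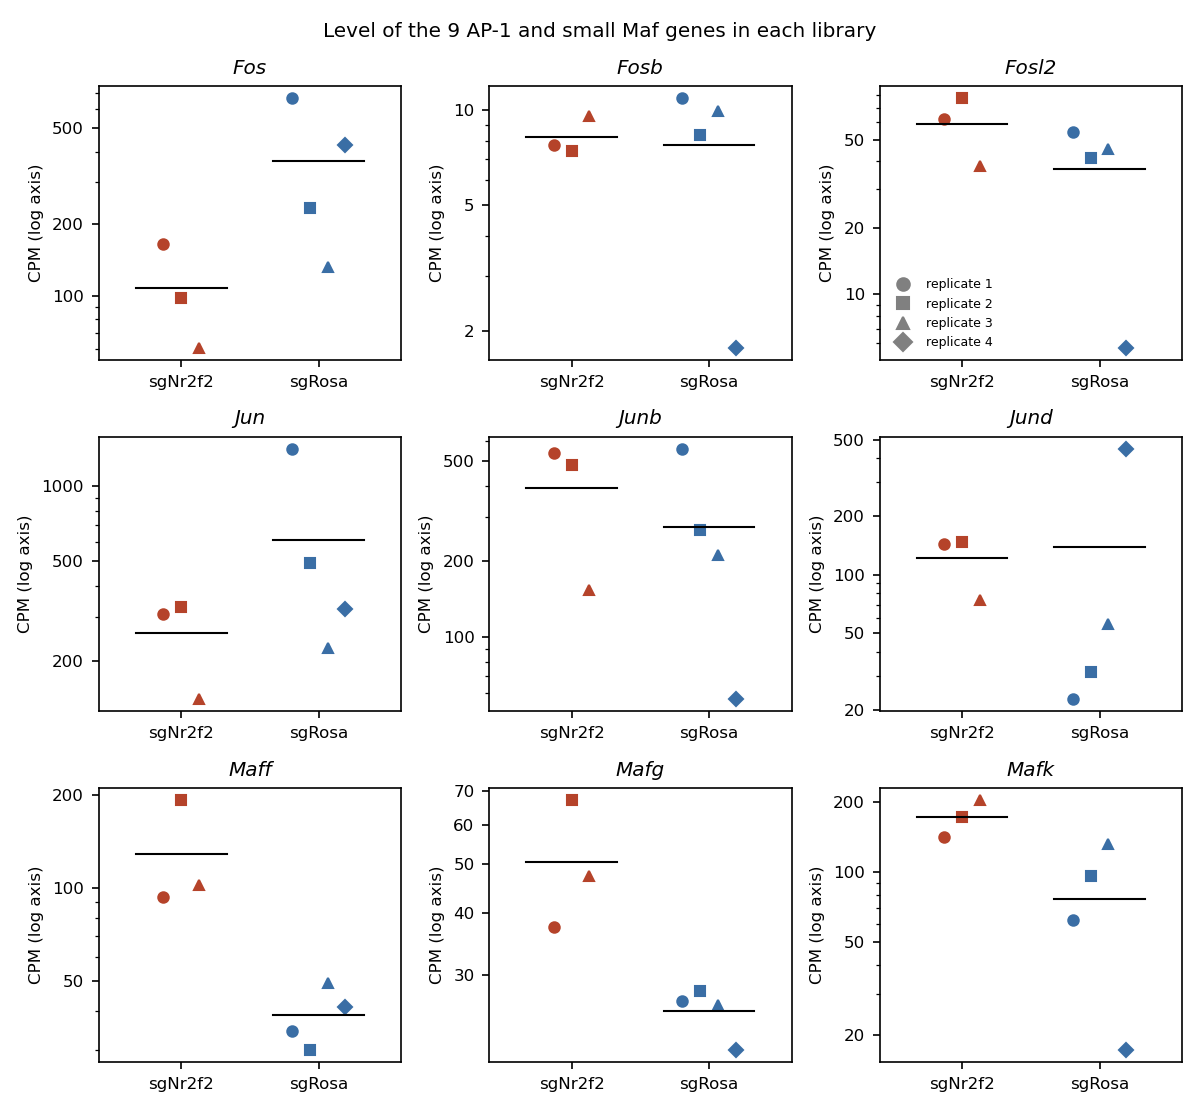
CPM (log axis) of each of the 9 genes in the 3 sgNr2f2 and 4 sgRosa libraries, with 1 point per library, a shape per replicate number and a line at the group mean. Maff, Mafg and Mafk separate the groups, and sgRosa replicate 4 lies far from the other sgRosa libraries for Jund, Mafk, Fosl2, Fosb and Junb.

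Fos encodes the founding member of the family and is the usual mark of recently active neurons. It had 165, 98.1 and 60.7 CPM in sgNr2f2 replicates 1 to 3, against 667, 233, 133 and 425 CPM in sgRosa replicates 1 to 4. Only sgRosa replicate 3 lay within the sgNr2f2 range, and the highest sgRosa library was more than 5 times its lowest. The log2 fold change was -1.76 (SE 0.66, 95% confidence interval -3.21 to -0.30), with an unadjusted p of 0.0226 and an edgeR adjusted p of 0.868. An exact two-sided permutation test on log2 CPM gave p = 0.114, where the smallest p that 35 splits allow is 0.0286.

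Jun encodes c-Jun, the main partner of Fos. It had 307, 328 and 140.2 CPM in sgNr2f2, against 1408, 491, 225 and 321 CPM in sgRosa. The groups overlapped, and sgRosa replicate 1 was more than 2 times any other library. The log2 fold change was -1.24 (SE 0.71, edgeR adjusted p = 0.868) and went to -0.42 without that library, while that of Fos went to -1.30.

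Junb encodes a Jun protein that can hold c-Jun activity down. It had 538, 481 and 154 CPM in sgNr2f2, against 557, 267, 212 and 57.0 CPM in sgRosa. The highest and the lowest library of all 7 were both sgRosa, and the difference was smaller than the spread within each group. Its log2 fold change was 0.52 (SE 0.72, 95% confidence interval -1.09 to 2.13, edgeR adjusted p = 0.932). It was 0.18 without sgRosa replicate 4 and 0.22 or 0.34 without sgNr2f2 replicate 1 or 2, but 0.90 without sgNr2f2 replicate 3 and 1.13 without sgRosa replicate 1.

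Jund encodes the Jun protein that most tissues make at rest, and its result turned on 1 library. It had 143, 147 and 74.0 CPM in sgNr2f2, against 22.7, 31.5, 55.6 and 444 CPM in sgRosa. Each sgNr2f2 library was above sgRosa replicates 1 to 3 and under sgRosa replicate 4. Over all 7 libraries the log2 fold change was -0.19 (SE 0.95, edgeR adjusted p = 0.984), whereas the difference in mean log2 CPM was 0.83, the opposite sign. Without sgRosa replicate 4 the log2 fold change was 1.73 (SE 0.41, unadjusted p = 0.00214, edgeR adjusted p = 0.235). The sgNr2f2 mean was then 121 ± 41.1 CPM (SD, n = 3) and the sgRosa mean 36.6 ± 17.0 CPM (SD, n = 3). Jund had the highest GC content of the 9 genes, 67.1% in its longest transcript, and 0.147% of the 13575 tested genes with a known GC content were as GC-rich or more. A correction of each library for GC content, added after the data were seen, gave 0.63 over all libraries and 1.25 without sgRosa replicate 4. Junb, next in GC content at 62.6%, was instead lowest in sgRosa replicate 4, and the correction gave it 0.12 over all libraries. The part of GC content in the Jund result was not tested beyond this correction.

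Fosl2 and Fosb are late or low members of the Fos family. Fosl2, which encodes Fra-2, had 62.1, 77.0 and 38.3 CPM in sgNr2f2, against 54.3, 41.6, 45.4 and 5.72 CPM in sgRosa. Fosb, whose short splice form is the long-lived ΔFosB, had 7.75, 7.4 and 9.56 CPM in sgNr2f2, against 10.9, 8.34, 9.93 and 1.77 CPM in sgRosa. For each gene only sgRosa replicate 4 stood clear of the other libraries, on the low side. The log2 fold changes were 0.68 (SE 0.63) for Fosl2 and 0.08 (SE 0.57) for Fosb, and without that library 0.33 (SE 0.30) and -0.24 (SE 0.28). Gene counts do not separate ΔFosB from full-length Fosb.

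Maff, a small Maf gene known to be induced by cytokines and stress, had the clearest separation of the 9 genes. It had 93.6, 192 and 102 CPM in sgNr2f2, against 34.5, 30.0, 49.4 and 41.3 CPM in sgRosa. The lowest sgNr2f2 library was nearly 2 times the highest sgRosa library. The log2 fold change was 1.74 (SE 0.43, 95% confidence interval 0.78 to 2.696) with an unadjusted p of 0.0023 and an edgeR adjusted p of 0.868. Its exact permutation p was 0.0286, the smallest possible, and 0.751 after adjustment over all genes. Leaving out each library in turn moved the log2 fold change between 1.34 (without sgNr2f2 replicate 2) and 1.93.

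Mafg, the small Maf often paired with Nfe2l2, had 37.5, 67.0 and 47.3 CPM in sgNr2f2, against 26.6, 27.9, 26.2 and 21.3 CPM in sgRosa. The 4 control libraries lay close together, at 25.5 ± 2.90 CPM (SD, n = 4), and all 3 sgNr2f2 libraries were above them. Both traits rest on the TMM scaling: on library size alone, sgRosa replicate 1 rose above sgNr2f2 replicate 1 and the groups overlapped. Its log2 fold change was 0.99 (SE 0.37, unadjusted p = 0.0231, edgeR adjusted p = 0.868), with an exact permutation p of 0.0286. Mafg ends in the same stretch of chromosome 11 as Sirt7 on the same strand, so some reads may have been shared between these 2 genes.

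Mafk, first known as the small subunit of the erythroid factor NF-E2, had 142, 173 and 203 CPM in sgNr2f2, against 62.5, 96.0, 132 and 17.3 CPM in sgRosa. All 3 sgNr2f2 libraries were higher, but the gap to sgRosa replicate 3 was small. The log2 fold change was 1.16 (SE 0.60, edgeR adjusted p = 0.868, exact permutation p = 0.0857) and 0.83 (SE 0.34) without sgRosa replicate 4. Its lowest value was in the library with the most erythroid marker RNA.

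**Figure D2:**
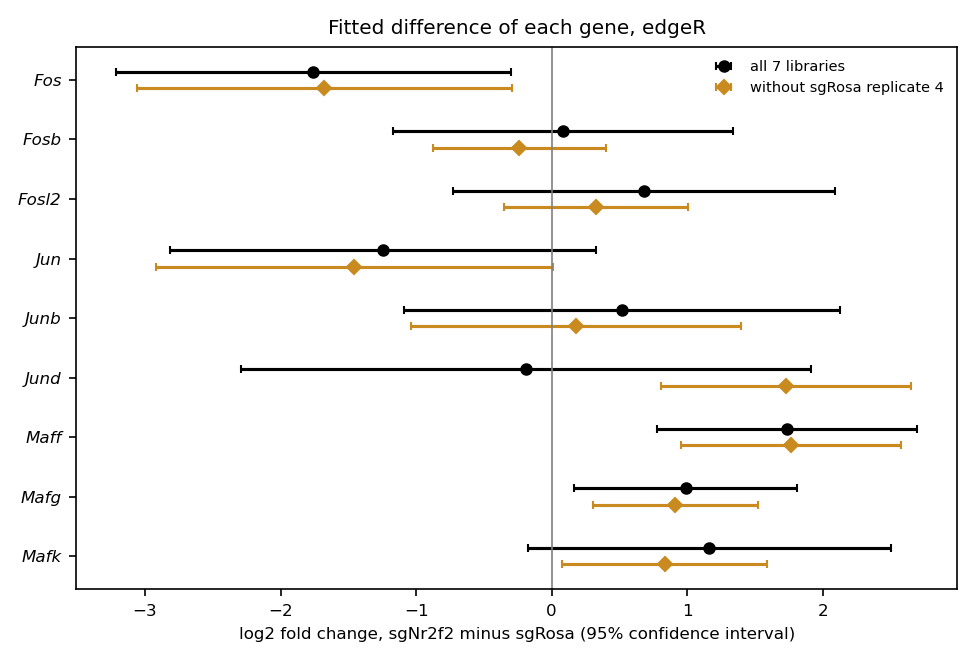
Log2 fold change of sgNr2f2 against sgRosa for each of the 9 genes (points) with 95% confidence intervals (bars) from edgeR, over all 7 libraries (black circles) and without sgRosa replicate 4 (ochre diamonds). The small Mafs stay on the right in each fit, Fos and Jun on the left, and Jund moves from -0.19 to 1.73.

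Marker levels of other cells were set beside these values. The 7 endothelial markers summed to 2109, 4609 and 2337 CPM in sgNr2f2 replicates 1 to 3, against 4232, 1841, 2470 and 3777 CPM in sgRosa replicates 1 to 4. The library with most Maff and Mafg, sgNr2f2 replicate 2, was also the highest in endothelial markers. The next highest in these markers, sgRosa replicate 1, had 34.5 CPM Maff and 26.6 CPM Mafg. The 8 microglia markers summed to 24.8 to 35.9 CPM in sgNr2f2 and 19.9 to 38.2 CPM in sgRosa, with Cx3cr1 and P2ry12 at 0 in at least 1 library. With the oligodendrocyte level as a covariate the log2 fold changes were 1.84 for Maff, 1.01 for Mafg, 1.07 for Mafk, -1.48 for Fos and 1.49 for Jund. The part of cell makeup in these differences was not tested.

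Without sgRosa replicate 4, edgeR still called 0 of the 9 genes in each direction (0.0% of all genes). At an unadjusted p under 0.05 it then had 4 genes higher (Jund, Maff, Mafg and Mafk) against 6.41% of all genes, and 1 lower (Fos) against 4.88%. Groups without overlap on the higher side numbered 4 of 9, against 8.99% of all genes, and on the lower side 0 of 9, against 9.01%. DESeq2 without that library called 2 of the 9 higher, Maff (log2 fold change 1.8, adjusted p = 0.00108) and Jund (1.75, adjusted p = 0.0066), against 1.82% of all genes, and 0 lower, against 0.824%. At an unadjusted p under 0.05 it had 4 higher (Jund, Maff, Mafg and Mafk) against 7.72%, and 2 lower (Fos and Jun) against 5.29%. Because the 9 genes were chosen with earlier results known, these counts too are only a description.

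**Figure D3:**
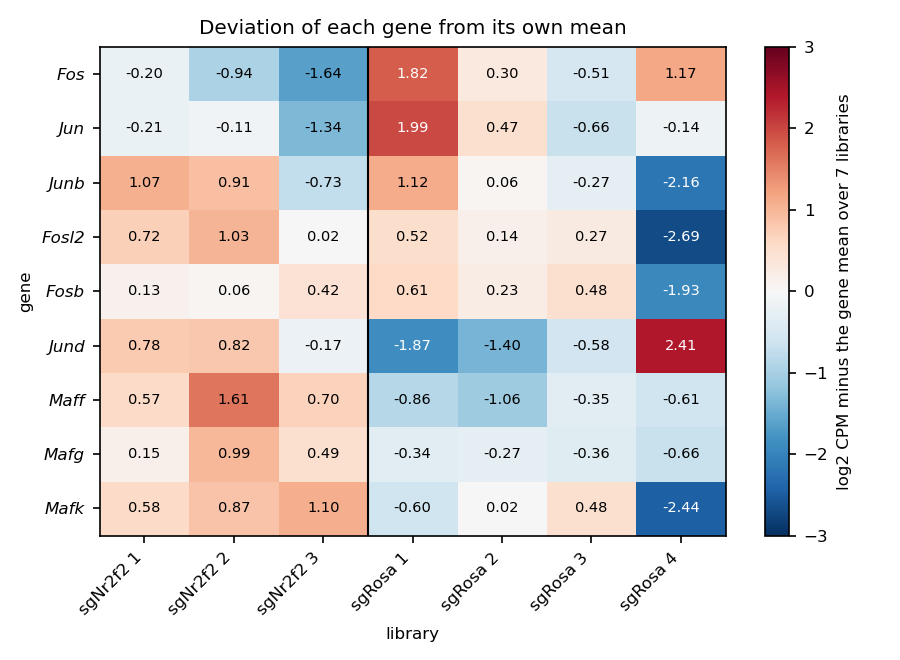
Deviation of log2 CPM from each gene's mean over the 7 libraries (colour and printed value), with sgNr2f2 libraries left of the line and sgRosa libraries right of it. Fos and Jun peak in sgRosa replicate 1, Maff and Mafg in sgNr2f2 replicate 2, and sgRosa replicate 4 is lowest for Junb, Fosl2, Fosb and Mafk and highest for Jund.

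The genes also differed among themselves in how they ran across libraries. Likeness was measured as the root mean square difference of centred log2 CPM over the 7 libraries, so that smaller is more alike. It was not scaled to a gene's spread, so genes that vary more tend to lie farther from others. Maff and Mafg were the closest pair (0.46), followed by Fosl2 and Junb (0.48), Fosb and Fosl2 (0.55) and Fos and Jun (0.61). The least alike pair was Fosl2 and Jund (2.24), which sgRosa replicate 4 put at opposite ends. Fos and Mafk (2.12) and Fos and Maff (1.88) were also far apart. Outside the family, the genes running closest to Maff were Tcf23 (0.12), Rasip1 (0.13) and Triobp (0.15), and those closest to Mafg were Lasp1 (0.12), Coro2b (0.13) and Eif4g1 (0.13). Fos, whose values ran widely, had no companion as close by this measure. Lurap1l (0.42), Adm (0.43) and Plxnc1 (0.45) came nearest to it, and Zfp366 (0.21) and Vcam1 (0.26) to Jun.

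Levels per length place the 9 genes on 1 scale, using exonic lengths from GENCODE M21 on GRCm38. In sgRosa, Jun averaged 192 CPM per kilobase, Fos 155, Junb 119 and Jund 83.1, and in that order neighbours overlapped throughout. These means lean on single libraries: for Jun, replicate 1 had 442 against 70.5 to 154 in the rest, and for Jund, replicate 4 had 266 against 13.6 to 33.4 in the rest. By the median over the 4 libraries Fos (140) stood above Jun (127), then Junb (104) and Jund (26.1). By the mean, Mafk (19.7), Maff (15.0), Mafg (4.54), Fosl2 (3.799) and Fosb (1.24) followed. Mafg libraries lay apart from Maff libraries in that order, and each other pair of neighbours overlapped. In sgNr2f2, Junb led with 170 CPM per kilobase, then Jun (81.1), Jund (72.7), Maff (49.8), Fos (45.8) and Mafk (44.2), with Mafg (9.01), Fosl2 (6.11) and Fosb (1.32) last. There the gaps were between Mafk and Mafg and between Fosl2 and Fosb. Maff thus stood with Fos in sgNr2f2 libraries, at 36.1 to 74.1 CPM per kilobase for Maff and 25.8 to 70.0 for Fos. In sgRosa libraries the ranges were apart, at 11.6 to 19.0 for Maff and 56.4 to 283 for Fos.

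Shares of counts within a family do not depend on how libraries are scaled. Fos took 70.2, 53.8 and 55.9% of the Fos, Fosb and Fosl2 counts in sgNr2f2, against 91.1, 82.3, 70.5 and 98.3% in sgRosa. The mean share was 60.0 ± 8.93% in sgNr2f2 (SD, n = 3) and 85.6 ± 11.9% in sgRosa (SD, n = 4). The groups were separated by a narrow gap: the exact 95% binomial interval of sgNr2f2 replicate 1 was 68.7 to 71.6% and that of sgRosa replicate 3 was 68.8 to 72.2%. Such intervals cover counting error only. How often shares within other sets of genes separate the groups was not computed. Fosl2 filled most of the rest, with 34.7 ± 7.86% in sgNr2f2 and 11.9 ± 9.84% in sgRosa.

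Within the Jun family, Jun took 31.1, 34.3 and 38.1% of counts in sgNr2f2, against 70.9, 62.2, 45.7 and 39.1% in sgRosa. Junb took 54.4, 50.3 and 41.8% in sgNr2f2, against 28.0, 33.8, 43.0 and 6.92% in sgRosa, and those ranges overlapped. Jund was 1.14 to 11.3% of the family in sgRosa replicates 1 to 3 but 54.0% in replicate 4, and 14.5 to 20.1% in sgNr2f2. Within the small Maf family the shares of all 3 genes overlapped between the groups. Maff took 34.3, 44.5 and 29.0% of counts in sgNr2f2, against 27.9, 19.5, 23.8 and 51.7% in sgRosa. Mafk took 52.0, 40.0 and 57.6% in sgNr2f2, against 50.6, 62.4, 63.6 and 21.7% in sgRosa. Mafg took 14.2 ± 1.13% in sgNr2f2 and 19.7 ± 5.88% in sgRosa (SD). The Maff share of sgRosa replicate 4 was above every other library, and that of the other 3 sgRosa libraries was below every sgNr2f2 library.

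**Figure D4:**
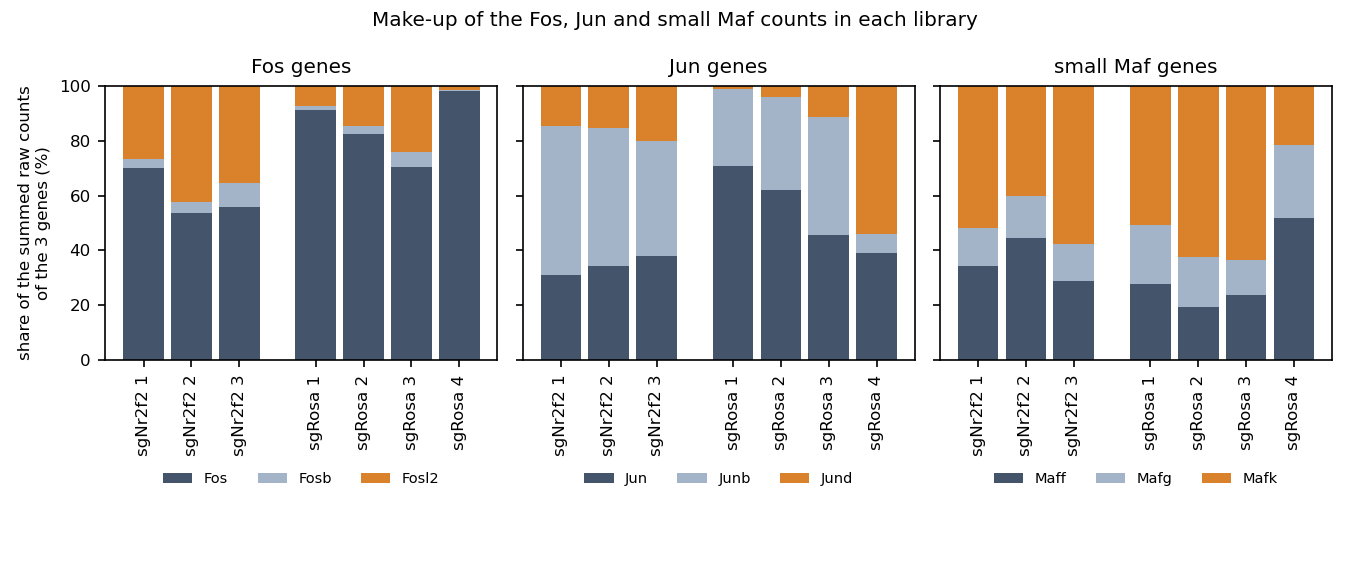
Share of the summed raw counts of the 3 Fos, 3 Jun and 3 small Maf genes that each gene took, with 1 bar per library and the sgNr2f2 libraries on the left of each panel. The Fos and Jun segments are shorter in every sgNr2f2 library than in any sgRosa library, by a narrow gap for each. Jund fills 54.0% of the Jun counts of sgRosa replicate 4.

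Ratios between genes in the same library were taken for 12 pairs, chosen after the values were seen, and some separated the groups while others did not. There were 56.9, 196 and 168 Maff counts per 100 Fos counts in sgNr2f2, against 5.17, 12.9, 37.2 and 9.73 in sgRosa. Mafg reached 22.8, 68.3 and 77.9 per 100 Fos counts in sgNr2f2, against 3.99, 11.96, 19.7 and 5.01 in sgRosa. Neither ratio overlapped between the groups. Maff and Mafg had already separated the groups and Fos leaned lower, so these ratios are not separate evidence. The share of all gene pairs that separate in this way was not computed. Mafk did overlap: it reached 86.3, 176 and 334 per 100 Fos counts in sgNr2f2, against 9.37, 41.2, 99.5 and 4.08 in sgRosa, and its ratio to Jun overlapped as well. Among the small Mafs, there were 249.8, 287 and 216 Maff counts per 100 Mafg counts in sgNr2f2, against 129.8, 108, 189 and 194 in sgRosa, with no overlap. The ratios of Fos to Jun, Maff to Mafk and Maff to Junb overlapped, and those of Maff to Jun, Mafg to Jun and Junb to Fos did not. Junb reached 175, 147 and 109.7 counts per 100 Jun counts in sgNr2f2, against 39.5, 54.3, 94.2 and 17.7 in sgRosa. All 3 sgNr2f2 libraries had more Junb than Jun counts, and all 4 sgRosa libraries had fewer.

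**Figure D5:**
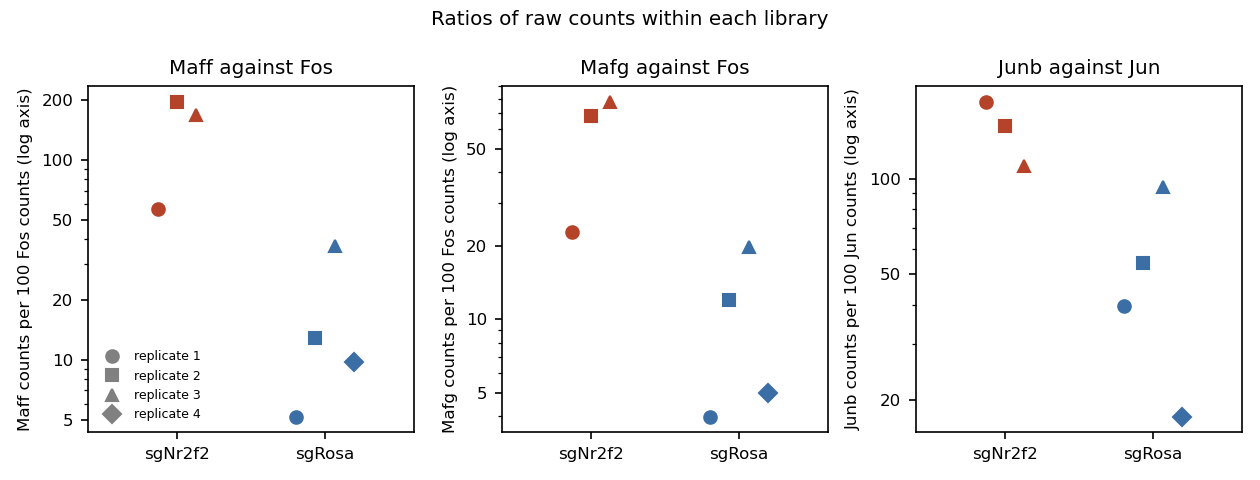
Raw counts of Maff and Mafg per 100 Fos counts and of Junb per 100 Jun counts (log axes), with 1 point per library and a shape per replicate number. For each ratio the lowest sgNr2f2 library lies above the highest sgRosa library, with sgRosa replicate 3 the nearest control. Ratios whose groups overlapped are not drawn.

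Related genes were read from 6 lists, and 0 of their genes passed edgeR's adjusted test. Of all 14412 genes tested, 6317 had a positive log2 fold change and 8095 a negative one, and 2.18% and 2.82% of all genes had an unadjusted p under 0.05 in those directions. Of 7 tested genes of the wider AP-1 family, 2 had positive and 5 negative log2 fold changes, and Atf3 alone had an unadjusted p under 0.05. Atf3, a stress-induced partner of Jun proteins, had 112, 148 and 48.1 CPM in sgNr2f2, against 390.5, 233, 225 and 202 CPM in sgRosa. All sgNr2f2 libraries were lower (log2 fold change -1.35, SE 0.53, edgeR adjusted p = 0.868, exact permutation p = 0.0286). Its unadjusted edgeR p was no longer under 0.05 without sgNr2f2 replicate 1, sgNr2f2 replicate 3 or sgRosa replicate 1. On the lower side 1 of the 7 genes was without overlap, against 3.9% of all genes. Fosl1, which encodes Fra-1, had 2.91, 5.94 and 2.60 CPM in sgNr2f2, against 0.094, 0.49, 0.68 and 5.59 CPM in sgRosa, so sgRosa replicate 4 lay within the sgNr2f2 range. Its log2 fold change was 1.24 (SE 1.06), 3.196 without that library and 0.77 without sgNr2f2 replicate 2. Batf (-1.19, SE 0.82, and -2.01 without sgNr2f2 replicate 2) and Atf7 (0.50, SE 0.44, and 0.26 without sgRosa replicate 4) were the others named.

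Among 7 tested large Maf genes and CNC or Bach partners, 4 lay on the higher side and 0 had an unadjusted p under 0.05 by edgeR. Bach2, a repressor that pairs with small Mafs, had 12.9, 11.7 and 6.90 CPM in sgNr2f2, against 5.81, 5.31, 5.65 and 1.23 CPM in sgRosa, with no overlap (log2 fold change 1.21, SE 0.55, edgeR adjusted p = 0.868). On the higher side 1 of the 7 genes was without overlap, against 4.41% of all genes. Nfe2l1, a CNC factor that drives proteasome genes, averaged 326 ± 56.9 CPM in sgNr2f2 and 183 ± 81.8 CPM in sgRosa, with a log2 fold change of 0.84 (SE 0.48). Bach1, a repressor of antioxidant genes that pairs with small Mafs, had 18.2, 8.63 and 9.99 CPM in sgNr2f2, against 11.5, 11.6, 11.6 and 2.59 CPM in sgRosa. Its groups overlapped (log2 fold change 0.39, SE 0.55, -0.01 without sgNr2f2 replicate 1 and 0.59 without sgNr2f2 replicate 2). Nfe2, the large subunit gene of NF-E2, was near 1 CPM in most libraries and differed by -0.76 on the log2 scale (SE 1.02), and by 0.68 without sgRosa replicate 4.

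Listed target genes of the small Maf dimers lay mostly on the lower side, as did 8095 of all 14412 genes tested. A link between them and the higher small Maf levels was not tested. Of 17 genes of the antioxidant response that Nfe2l2 and small Maf dimers are known to bind, 3 had positive and 14 negative log2 fold changes, with a median of -0.38 against -0.11 over all genes. None had an unadjusted p under 0.05 by edgeR over all 7 libraries. Without sgRosa replicate 4, 5 of the 17 lay on the higher side, with a median of -0.28 against -0.03 over all genes. At an unadjusted p under 0.05, 1 was then higher, against 6.41% of all genes, and 1 lower, against 4.88%. DESeq2 without that library called Osgin1 of this list higher (log2 fold change 1.49, adjusted p = 0.032), where it called 1.82% of all genes higher. Hmox1, the haem oxygenase gene, had 0.42, 2.69 and 0.42 CPM in sgNr2f2, against 4.36, 3.09, 1.09 and 11.3 CPM in sgRosa (log2 fold change -2.04, SE 0.94, -1.27 without sgRosa replicate 4 and -3.50 without sgNr2f2 replicate 2). Its sgNr2f2 values rest on 7, 48 and 7 counts. Slc7a11, the cystine transporter gene, was at 0.21 ± 0.31 CPM in sgNr2f2 and 1.24 ± 0.66 CPM in sgRosa. Nqo1 (-1.24, SE 0.65, and -0.40 without sgRosa replicate 2) and Gstm1 (-0.999, SE 0.56, and -0.44 without sgRosa replicate 4) were the others named.

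Of 24 kinases and regulators of AP-1, 14 lay on the higher side. By edgeR 2 of the 24 were higher at an unadjusted p under 0.05, against 2.18% of all genes. That count was 0 on library size alone, with no filter on low counts, and without sgNr2f2 replicate 3, sgRosa replicate 1 or sgRosa replicate 2. It was 1 without sgNr2f2 replicate 1, sgNr2f2 replicate 2 or sgRosa replicate 3, and 4 without sgRosa replicate 4, against 6.41% of all genes in that last fit. Mapk3, which encodes the kinase ERK1 upstream of Fos, had 127, 108 and 118 CPM in sgNr2f2, against 48.4, 62.9, 71.3 and 58.9 CPM in sgRosa (log2 fold change 0.96, SE 0.38, edgeR adjusted p = 0.868). Mef2a, an activity-regulated transcription factor gene, averaged 184 ± 62.5 CPM in sgNr2f2 and 91.5 ± 8.23 CPM in sgRosa (1.01, SE 0.42). Neither gene's groups overlapped. They were the 2 of the 24 without overlap on the higher side, against 4.41% of all genes. Mef2d, a relative of Mef2a, was 0.76 higher on the log2 scale (SE 0.45), and the ERK-activated kinase gene Rps6ka3 0.84 (SE 0.52, and 0.26 without sgNr2f2 replicate 2).

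Of 18 tested genes described as AP-1 targets, 4 had positive and 14 negative log2 fold changes, with a median of -0.98, which was 0.12 without sgRosa replicate 4 with 9 of 17 on the higher side. Sst, the somatostatin gene, had 12.4, 16.2 and 15.2 CPM in sgNr2f2, against 47.6, 12.3, 23.4 and 98.7 CPM in sgRosa (log2 fold change -1.64, SE 0.66, unadjusted p = 0.0309, edgeR adjusted p = 0.868, and -0.93 without sgRosa replicate 4). Its unadjusted edgeR p stayed under 0.05 without sgRosa replicate 2 or 3 and not without any of the other 5 libraries. Plat, the tissue plasminogen activator gene, lay at 736 ± 331 CPM in sgNr2f2 and 267 ± 182 CPM in sgRosa with no overlap (1.46, SE 0.84). On the higher side 1 of the 18 genes was without overlap, against 4.41% of all genes. Plaur, the urokinase receptor gene, differed by 1.30 on the log2 scale (SE 0.66, and 0.51 without sgNr2f2 replicate 3), and the substance P gene Tac1 by -1.24 (SE 0.70, and -0.43 without sgRosa replicate 4).

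Early and heat shock genes known to respond to tissue digestion, with the 9 genes left out, bear on the handling of the tissue. Their 21 members summed to 6581, 9434 and 3303 CPM in sgNr2f2, against 11640, 4805, 4124 and 8126 CPM in sgRosa, so the groups overlapped. As for Jun, sgRosa replicate 1 was highest and sgNr2f2 replicate 3 lowest. Of 20 tested members, 9 lay on the higher side, and their median log2 fold change was -0.30. Egr1, an early growth response factor gene, had 72.1, 51.1 and 32.6 CPM in sgNr2f2, against 675, 153, 53.1 and 115 CPM in sgRosa (log2 fold change -2.26, SE 0.85, and -1.05 without sgRosa replicate 1). Cebpb went the other way, at 23.8, 18.3 and 4.06 CPM in sgNr2f2, against 1.55, 6.55, 5.10 and 1.63 CPM in sgRosa (2.04, SE 0.70). Ier5 had a log2 fold change of 1.32 (SE 0.61). The part of tissue digestion in the levels of Fos, Jun and the other early genes was not tested.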

How the data were processed

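Gene expression was measured by RNA-seq in 7 libraries. The deposited values are raw read counts for each gene symbol, in 1 series table and in 7 single-library files that held the same numbers. For alignment and counting, STAR 2.7.5c and featureCounts 2.0.1 on mm10 appear in the submitters' processing notes, beside edgeR 3.42.4, MultiQC 1.11, FastQC 0.11.9 and fastp 0.23.2. No source used here gives the annotation, the strand setting or the handling of multi-mapped reads.

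Groups came from the sample titles. The counts were fitted with edgeR 4.0.16 (R 4.3.3; quasi-likelihood F test, TMM factors, filterByExpr, group as the only term), and p-values were adjusted over 14412 genes after Benjamini and Hochberg, at a threshold of 0.05. Log2 CPM used a prior count of 2. Exact two-sided permutation tests ran over 35 splits. Alternatives used DESeq2 1.42.0, limma 3.58.1, other scalings and filters, a replicate block and leaving out each library. GC content was known for 94.2% of tested genes. The fit was also run on simulated counts, where a pass was required only at a low, fixed spread between libraries. That check does not cover a library that stands apart, such as sgRosa replicate 4.

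The named genes are the 9 genes, Nr2f2, up to 4 genes of smallest p per list, and the 3 genes most like each of the 9 with a mean of at least 20 counts. The 9 genes and the lists were chosen with earlier results of these data known. One listed gene is not reported here and was left out of its list. Jun, Junb, Jund, Mafg and Mafk overlap other annotated genes, so their counts may hold shared reads.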

Additional observations from a re-analysis of the deposited data

Results flagged for a closer look

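In 8 of 42 control-group values, 1 sgRosa library lay far from the other 3, with a gap past Dixon's 95% critical value as a share of the whole range. About 1 in 20 such groups would be picked out by chance if the values were normal. CPM values need not be normal and all 42 share the same control libraries, so 8 of 42 cannot be held against that rate. For Jund the gap of sgRosa replicate 4 (444 CPM) was 0.922 of the range of the control libraries, for Fosl1 (5.59 CPM) 0.893 and for Nfe2 (5.72 CPM) 0.844. The same library was low for Bach2 (1.23 CPM, 0.889 of the range) and Bach1 (2.59 CPM, 0.983). Replicate 1 was the high one for Atf3 (390.5 CPM, 0.837) and Egr1 (675 CPM, 0.839), and replicate 2 for Nqo1 (14.8 CPM, 0.851).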

How the results depend on the processing

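Over 22 alternative fits, the log2 fold changes of Maff, Mafg, Mafk, Fosl2, Fos and Jun kept their sign in all 22, that of Junb in 21, and those of Fosb and Jund in 12 each. Ranges were 1.34 to 1.93 for Maff, 0.74 to 1.17 for Mafg, 0.61 to 1.596 for Mafk, 0.15 to 0.99 for Fosl2, -2.20 to -1.24 for Fos and -1.62 to -0.42 for Jun.

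Fosb turned to -0.15 on library size alone, -0.0799 with limma-voom quality weights, -0.10 with the oligodendrocyte covariate, -0.24 with the replicate block, -0.0782 with the GC correction, and -0.21 (DESeq2), -0.24 (limma-voom) and -0.44 (GC correction) without sgRosa replicate 4. In leave-one-out fits it ran from -0.24 to 0.29, and its difference in mean log2 CPM from -0.23 to 0.61. Junb turned to -0.28 with the GC correction without sgRosa replicate 4. Jund turned to 0.75 with limma-voom, 1.21 with quality weights, 1.49 with the covariate, 1.78 with the replicate block, 0.63 with the GC correction, and 1.75 (DESeq2), 1.75 (limma-voom) and 1.25 (GC correction) without sgRosa replicate 4. Its leave-one-out range was -0.56 to 1.73. Nfe2 turned to 0.44 with limma-voom, 1.12 with quality weights, 0.93 with the covariate, 0.86 with the replicate block, and 0.71 (DESeq2), 0.96 (limma-voom) and 0.64 (GC correction) without sgRosa replicate 4. Its leave-one-out range was -1.14 to 0.68 and that of Bach1 -0.0143 to 0.591. The cause was not tested.

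DESeq2 called 2 genes higher and 5 lower over all 7 libraries, and 256 higher and 116 lower without sgRosa replicate 4. These included 2 of the members described, Maff and Jund, higher, and of the listed genes 4 higher (Fosl1, Mapk3, Mef2d and Osgin1) and 1 lower (Egr1). DESeq2 gave no p for Jund over all 7 libraries. The other fits called 0 genes. Of the 9 members, those higher at an unadjusted p under 0.05 numbered 1 on library size alone and 4 with quality weights, with the replicate block, and with DESeq2 or limma-voom without sgRosa replicate 4, and those lower numbered 0 with the covariate and 2 with DESeq2 or the GC correction without that replicate. In leave-one-out fits these were 1 to 4 members higher and 0 to 1 lower, and members whose groups did not overlap on the lower side were 0 to 1. The share of Jund among Jun family counts, in percentage points of difference, ran from -6.45 to 11.2, that of Maff from 0.90 to 12.2, and that of Mafk from -8.99 to 5.24.

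Scaling moved the median log2 fold change of all genes from -0.11 with TMM to -0.33 on library size alone and -0.19 with upper-quartile factors. Genes at an unadjusted p under 0.05 were then 127 higher and 621 lower, and 245 higher and 541 lower, against 314 and 407. The labels do not say that replicate numbers pair the libraries. Deviations of same-numbered libraries from their group means had correlations across genes of -0.20, -0.26 and 0.09. With 3 and 4 libraries per group, these values cannot decide whether libraries were paired. The replicate block leaves sgRosa replicate 4 without weight. Of 264 counts of listed genes at an unadjusted p under 0.05, 92 moved by more than 1.5 times, most of them counts of a few genes. Low counts limit Fosl1, Nfe2, Slc7a11 and Hmox1. The GC corrections were added after the data were seen.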
